A study of Homo sapiens with 6 samples.

Results

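The lysosomal hydrolases and their activators are the soluble enzymes and helper proteins that break down proteins, glycans, lipids and nucleic acids inside the lysosome. A list of 45 such genes was followed by name in a gene table of 27394 genes, and 45 of the 45 were found there with a mean value of at least 1 over all libraries. The series is an RNA-seq comparison in PANC-1 cells, a human pancreatic ductal carcinoma line, asking what changes in expression when ZDHHC20 is silenced. ZDHHC20 is a palmitoyl acyltransferase, an enzyme that attaches the fatty acid palmitate to cysteines of other proteins. There were 3 libraries of cells given a control short hairpin RNA (shControl) and 3 of cells given a hairpin against ZDHHC20 (shZDHHC20), all from total RNA of the same line. The labels give RPMI-1640 with serum as the medium, while the study's general methods give DMEM. The labels do not name the hairpin or the time after infection, so whether the 3 shZDHHC20 libraries carried the same hairpin is not known here. Nothing in the labels says that the libraries came from separate cultures, so the p-values measure only the spread between these libraries, which may be technical.

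Lysosomal hydrolases are made in the endoplasmic reticulum, tagged in the Golgi with mannose 6-phosphate, and carried to acidic endosomes by mannose 6-phosphate receptors. Many are made as inactive precursors and are trimmed by other lysosomal peptidases once they arrive. Genes of this group are known to be switched on together by the MiT/TFE transcription factors (TFEB, TFE3 and MITF), which bind a short promoter element called CLEAR that contains the letters TCACGTG.

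The silenced gene followed its labels. ZDHHC20 had normalized counts of 2001, 2033 and 1940.4 in the shControl libraries and 872, 779 and 893 in the shZDHHC20 libraries, and the groups did not overlap. Its mean fell to 42.6% of the shControl mean (log2 fold change -1.23, SE 0.065, adjusted p = 4.36e-07). A normalized count is a read count divided by a scaling factor of its library, and the summed values were 17083277 to 18007664 per library. The second shZDHHC20 library stood apart from the other two of its group: across 4136 well-expressed genes the log2 values differed with an SD of 0.178 and 0.198 from the first and the third, against 0.0722 between those. It also had the lowest mitochondrial share, 4.01% of summed counts against 5.28% to 5.52% in the other libraries, so results below are given without it where that changes them. Of 8 ductal epithelium markers, KRT8 (shControl and shZDHHC20 means of 56187 and 51529), KRT18 (19660 and 17570) and KRT19 (5917 and 6304) were abundant. KRT7 was low (86.5 and 85.3). EPCAM rose from 72.4 ± 20.5 to 525 ± 43.7 (mean ± SD, n = 3, here and for all later values with ±) and CDH1 and MUC1 also rose, while SOX9 fell from 3929 ± 119 to 3127 ± 181. Among the fibroblast markers in the table, COL1A1 fell from 3931 ± 42.7 to 3260 ± 134 (limma adjusted p = 0.00288). LUM and PDGFRB averaged only 1.17 and 3.85 over all libraries. The part of these marker shifts in the results that follow was not tested. Leukocyte markers were low, with 7 of 8 listed genes in the table summing to 69.1 to 77.3 in shControl and 40.3 to 74.2 in shZDHHC20, and CD68 and AIF1 were listed at 0 in libraries of both groups.

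Of the 45 lysosomal genes, 10 were lower in shZDHHC20 cells, 0 were higher and 35 were not called, by limma with a threshold of 0.05 on p-values adjusted over the 22189 genes tested. Across all genes tested 6.84% were called lower and 4.61% higher, so the share of members called lower, 22.2%, was above the background and the share called higher was below it. At an unadjusted p under 0.05, 16 members were lower (35.6%) and 2 were higher (4.44%), beside 12.6% and 11.2% of all genes tested. The 10 lower members were the sialidase NEU1, the peptidases LGMN, CTSA and SCPEP1, the sulfatases ARSB and SGSH, the phospholipase B-like protein PLBD2, the ganglioside activator GM2A, the iduronidase IDUA and the folate-cleaving peptidase GGH. They held 60.4% to 84.2% of their shControl means, so each kept most of its transcript. Called genes are found more often among well-expressed genes: of the 10908 genes averaging 100 normalized counts or more, 13.3% were lower and 8.41% were higher, and 10 of the 41 members at that level, 24.4%, were lower. At an unadjusted p under 0.05 the shares of those genes were 22.1% lower and 16.9% higher.

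The fitted log2 fold changes of the 45 genes ran from -1.09 for CTSS to 0.65 for CTSK, with 32 below 0 and 13 above it. Their median was -0.097, beside 0.013 for all genes tested. In 19 members every shZDHHC20 library was below every shControl library and in 2 every one was above, against 14.8% and 13.8% of all genes tested in those directions. Among the 41 members averaging 100 or more these counts were 18 and 0, beside 2603 and 2046 of the 10908 genes at that level. The summed normalized counts of all 45 genes were 88068, 87704 and 88136 in shControl and 81807, 84303 and 81220.2 in shZDHHC20. The groups did not overlap, and the shZDHHC20 mean was 93.7% of the shControl mean, nearer to the control level than any of the 10 called genes. The summed values of all genes were also lower in each shZDHHC20 library (17569436, 17083277 and 17746705) than in each shControl library (17962383, 17975726 and 18007664). The 93.7% is not corrected for that. PSAP, CTSD and CTSB, which held the most counts, had fitted changes closer to 0 than any called gene. In bulk RNA a smaller share of cells carrying a transcript and less transcript per cell cannot be told apart.

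**Figure D1:**
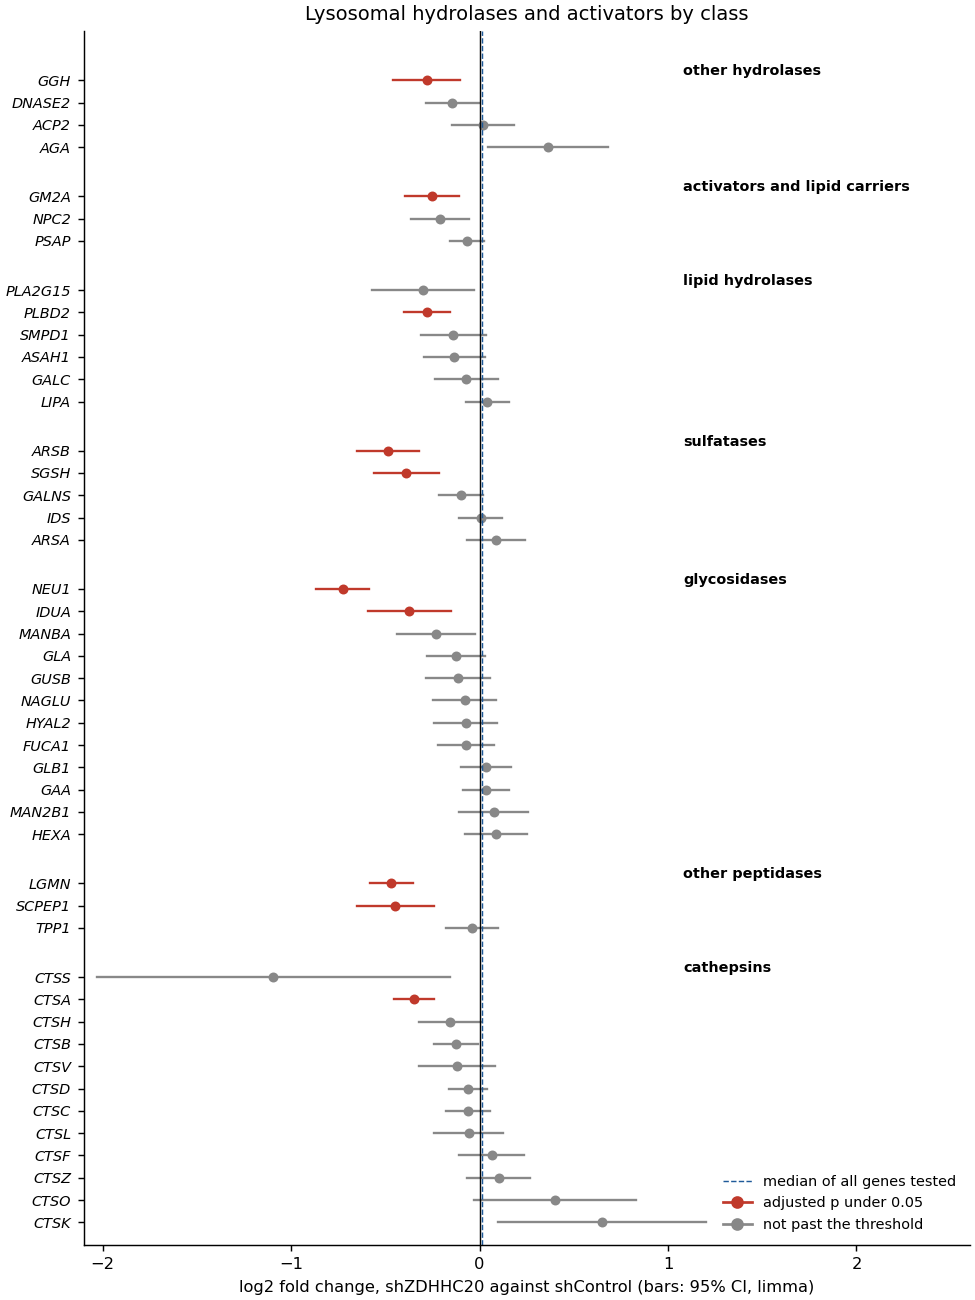
Fitted log2 fold change (shZDHHC20 over shControl) of the 45 lysosomal hydrolases and activators, grouped by class, with 95% confidence intervals. The 10 called members all lie below 0, and they are spread over every one of the 7 classes.

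When the second shZDHHC20 library was left out, 16 members were lower instead of 10, beside a background of 11.1% of 22258 genes. All 10 remained and CTSB, CTSD, DNASE2, GUSB, NPC2 and PSAP were added. When the variance was moderated without its trend on expression level, 2 members, NEU1 and LGMN, stayed past the threshold, and 0.978% of genes tested were lower.

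Among the peptidases, 3 of 15 were lower, and none of the 3 was a cysteine cathepsin. The share called lower was 20%, beside 6.84% of all genes tested and 13.3% of genes averaging 100 or more. LGMN encodes legumain, the asparaginyl endopeptidase that trims precursors of several cathepsins (ENSG00000100600, chr14:92703807-92748702, minus strand, GRCh38). Its normalized counts were 1713, 1686 and 1726 in shControl and 1219, 1242 and 1245 in shZDHHC20. The ranges were narrow and far apart, with a mean of 1708 ± 20.3 against 1235 ± 14.2 (SD, n = 3 each), or 72.3% of control. The log2 fold change was -0.47 (SE 0.054, limma adjusted p = 9.81e-05), and it stayed past the threshold in all 17 alternative analyses.

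CTSA encodes cathepsin A, or protective protein, a serine carboxypeptidase that also holds NEU1 and the beta-galactosidase GLB1 in a complex in the lysosome (ENSG00000064601, chr20:45890144-45898820, plus strand). Its normalized counts were 2714, 2755 and 2698 in shControl and 2110.4, 2201 and 2106 in shZDHHC20, again without overlap. The mean fell from 2722 ± 29.2 to 2139 ± 53.9, 78.6% of control (log2 fold change -0.35, SE 0.049, limma adjusted p = 0.000526). Exons of CTSA overlap exons of NEURL2 and PLTP on the opposite strand, whose mean values were 6.67 and 46.8, small beside that of CTSA. SCPEP1, a retinoid-inducible serine carboxypeptidase related to cathepsin A (ENSG00000121064, chr17:56978105-57006768, plus strand), had 564, 609 and 649.8 in shControl and 469.6, 482 and 389.8 in shZDHHC20. It fell to 73.6% of control (log2 fold change -0.45, SE 0.094, limma adjusted p = 0.00766), and without the third shControl library the adjusted p was 0.0615. TPP1, the tripeptidyl peptidase mutated in a form of Batten disease, had overlapping groups and a log2 fold change of -0.040 (95% interval -0.18 to 0.10).

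The 10 cysteine cathepsins (CTSB, CTSC, CTSF, CTSH, CTSK, CTSL, CTSO, CTSS, CTSV and CTSZ) gave 0 calls by limma. Of all genes tested 6.84% were called lower and 4.61% higher, so 0 calls in 10 genes is not far from those shares. At an unadjusted p under 0.05 these cathepsins gave 2 lower (20%) and 1 higher (10%), beside 12.6% and 11.2% of all genes tested. Genes averaging 100 or more had 22.1% and 16.9%, but CTSK, CTSO and CTSS lay under that level. Their median log2 fold change was -0.059. CTSB, an endopeptidase and the one with the most counts, had 5306, 5077 and 5499.7 in shControl and 4721, 5223 and 4638 in shZDHHC20. The second shZDHHC20 library lay inside the shControl range and the other shZDHHC20 libraries lay below it. CTSB then had an adjusted p of 0.186 with all libraries and of 0.00202 without that library. CTSL and CTSV are close paralogs, and their log2 fold changes were -0.058 (95% interval -0.24 to 0.13) and -0.12 (95% interval -0.32 to 0.084).

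The lowest and the highest fitted values belonged to cathepsins with few reads. CTSS, which is typical of antigen-presenting cells, had normalized counts of 12.1, 17.1 and 18.0 in shControl and 7.42, 6.57 and 7.70 in shZDHHC20, and its log2 fold change of -1.09 had a 95% interval of -2.03 to -0.16 and an adjusted p of 0.136. The leukocyte marker ITGAM also had non-overlapping groups, with means of 33.8 ± 6.54 and 17.5 ± 5.96 (adjusted p = 0.0745), whereas those of CD14 overlapped, with means of 31.2 ± 4.74 and 27.4 ± 12.5. CD68, AIF1 and PTPRC had means under 5 in both groups. All libraries are of the same cell line, and the source of the low CTSS counts was not tested. CTSK, the osteoclast collagenase, had 37.4, 45.2 and 26.0 in shControl and 68.9, 52.6 and 47.2 in shZDHHC20. The groups did not overlap in the opposite direction, with a log2 fold change of 0.65 (adjusted p = 0.133). Neither gene passed the test.

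CTSD, the aspartic endopeptidase of the lysosome, had the largest mean count among the peptidases. Its normalized counts were 8073, 7893 and 8118 in shControl and 7596, 8091 and 7391 in shZDHHC20. The groups overlapped, and the log2 fold change was -0.063 (95% interval -0.16 to 0.037, adjusted p = 0.459), which became an adjusted p of 0.0143 without the second shZDHHC20 library. Of the 50-base stretches of its longest coding transcript, 60.6% also occur in AC068580.4, an overlapping protein-coding gene on the same strand. Reads of the pair could be split in counting, and AC068580.4 had a mean of 26.0.

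**Figure D2:**
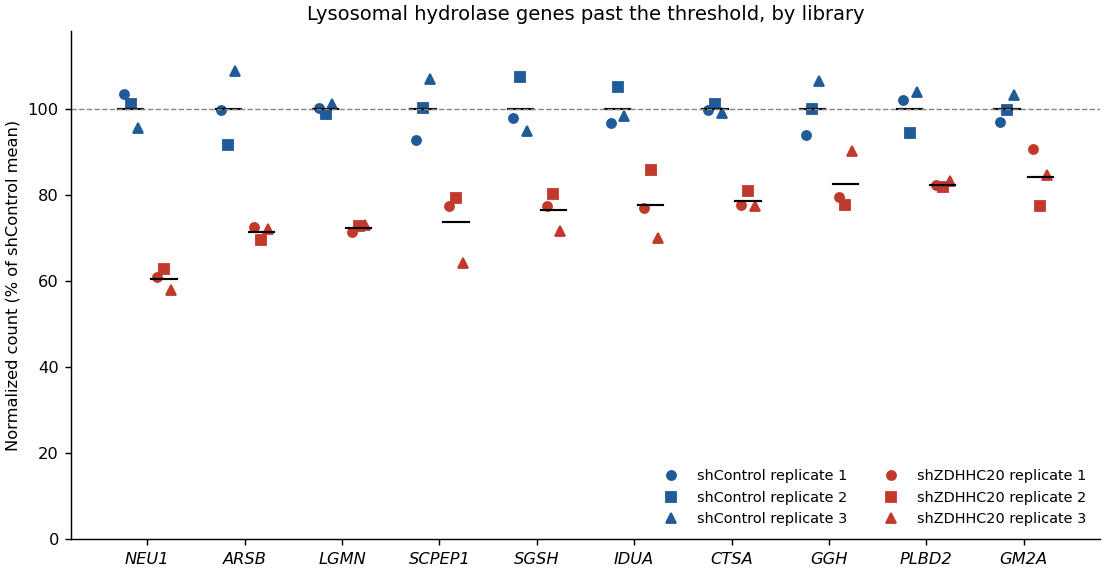
Normalized counts of the 10 members called lower, as a percentage of the shControl mean of each gene. Points are the 3 shControl and 3 shZDHHC20 libraries, and lines are the group means. In each gene every shZDHHC20 library lies below every shControl library, and NEU1 shows the widest relative gap, at 60.4% of control.

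The glycosidases take sugars off glycoproteins, glycolipids and glycosaminoglycans, most of them from the end of the chain. Of the 12, 2 were lower, and the class median log2 fold change was -0.076. The share called lower was 16.7%, beside 6.84% of all genes tested and 13.3% of genes averaging 100 or more. NEU1, the sialidase that removes terminal sialic acids, lies in the major histocompatibility complex region (ENSG00000204386, chr6:31857659-31862906, minus strand). Its normalized counts were 1292, 1262 and 1194 in shControl and 761, 783 and 722 in shZDHHC20. The highest shZDHHC20 value lay well under the lowest shControl value. The mean fell from 1249.8 ± 50.2 to 755 ± 31.1, 60.4% of control (log2 fold change -0.73, SE 0.064, limma adjusted p = 1.49e-05), the lowest adjusted p of any member, and it stayed past the threshold in all 17 alternative analyses.

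IDUA, the alpha-L-iduronidase that acts on dermatan and heparan sulfate (ENSG00000127415, chr4:986997-1004506, plus strand), had 309, 335 and 314 in shControl and 246, 274 and 223 in shZDHHC20. Its mean fell to 77.5% of control (log2 fold change -0.37, SE 0.10, limma adjusted p = 0.0307). Leaving out any library but the second of shZDHHC20 lost this call, with adjusted p of 0.0887 to 0.14. Exons of IDUA overlap those of SLC26A1 on the opposite strand, which had a mean of 62.8. GLB1, the beta-galactosidase held in the complex of CTSA and NEU1, had 1019, 1082 and 1083 in shControl and 1102, 1045 and 1112 in shZDHHC20. The groups overlapped, and the log2 fold change was 0.034 with a 95% interval of -0.10 to 0.17, so the 3 partners of that complex had different fitted values (NEU1 -0.73, CTSA -0.35, GLB1 0.034), with no test of the differences between them. GAA, the acid alpha-glucosidase that degrades glycogen and the glycosidase with the largest mean count, had a log2 fold change of 0.034 (95% interval -0.089 to 0.16). Among the glycosidases that did not pass, the one farthest from 0 was MANBA, the beta-mannosidase, with means of 359.9 ± 14.3 and 308 ± 32.3 (log2 fold change -0.23, adjusted p = 0.163). The other 7 (GLA, GUSB, HEXA, MAN2B1, NAGLU, FUCA1 and HYAL2) had log2 fold changes between -0.12 and 0.087.

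Sulfatases remove sulfate groups from glycosaminoglycans and sulfated lipids, and all need SUMF1, the enzyme of the endoplasmic reticulum that converts a cysteine of their active site to formylglycine. Of the 5, 2 were lower, or 40% of only 5 genes, beside 6.84% of all genes tested and 13.3% of genes averaging 100 or more. ARSB, or N-acetylgalactosamine 4-sulfatase (ENSG00000113273, chr5:78777209-78986087, minus strand), had 787, 722 and 858 in shControl and 571, 548 and 569 in shZDHHC20. The shControl libraries spread more widely than the shZDHHC20 libraries but did not reach them, and the mean fell to 71.3% of control (log2 fold change -0.48, SE 0.077, limma adjusted p = 0.00119). SGSH, or heparan N-sulfatase (ENSG00000181523, chr17:80206716-80220923, minus strand), had 588, 646 and 571 in shControl and 465, 482 and 431 in shZDHHC20. Its mean fell to 76.4% of control (log2 fold change -0.39, SE 0.08, limma adjusted p = 0.0069). Without the second shControl library the adjusted p was 0.0577. Exons of SGSH overlap those of SLC26A11 on the opposite strand, whose mean of 413 was of the same order, and the strand setting of the count is not given in the sources used here. Of the 50-base stretches of the longest coding transcript of SGSH, 0.695% also occur in another gene on either strand. That gene is CARD14 and not SLC26A11.

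The other sulfatases gave no call. IDS, the iduronate 2-sulfatase and the one with the largest mean count, had means of 5122 ± 73.8 and 5153 ± 346, with a log2 fold change of 0.0064 (95% interval -0.11 to 0.12). GALNS was lower in each shZDHHC20 library than in each shControl library, with means of 1446 ± 11.8 and 1352 ± 22.4, but the log2 fold change of -0.10 did not pass (adjusted p = 0.305). ARSA, the arylsulfatase that acts on sulfatide, had a log2 fold change of 0.088 (95% interval -0.064 to 0.24). SUMF1 itself, no member of the list, fell from 633 ± 19.0 to 449 ± 21.8 (log2 fold change -0.50, SE 0.075, limma adjusted p = 0.000798).

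Of the 6 lipid hydrolases, 1 was lower, or 16.7%, beside 6.84% of all genes tested and 13.3% of genes averaging 100 or more. PLBD2, a mannose 6-phosphate-tagged protein of the phospholipase B-like family (ENSG00000151176, chr12:113358566-113391625, plus strand), had 1852, 1712 and 1886 in shControl and 1493, 1485 and 1509.9 in shZDHHC20. The shZDHHC20 libraries lay close together, and the mean was 82.3% of control (log2 fold change -0.28, SE 0.057, limma adjusted p = 0.0063). Without the first or the third shControl library the adjusted p was 0.0514 or 0.0571. LIPA, the acid lipase that frees cholesterol from its esters and the one with the largest mean count, had a log2 fold change of 0.042 (95% interval -0.074 to 0.16). PLA2G15, a lysosomal phospholipase A2, had the value farthest from 0 among those that did not pass, -0.30, with means of 210.5 ± 18.0 and 172 ± 21.7 (adjusted p = 0.164). ASAH1, SMPD1 and GALC, which act on ceramide, sphingomyelin and galactosylceramide, had values of -0.13, -0.14 and -0.069, none past the test.

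Activators and carriers present lipids to the enzymes or move them out of the lysosome, and 1 of the 3 was lower. That is 33.3% of only 3 genes, beside 6.84% of all genes tested and 13.3% of genes averaging 100 or more. GM2A, the activator that lifts GM2 ganglioside out of the membrane for beta-hexosaminidase (ENSG00000196743, chr5:151212150-151270440, plus strand), had 1617, 1662 and 1721 in shControl and 1509, 1288 and 1409.8 in shZDHHC20. The nearest libraries of the groups were the first of each, and the mean fell to 84.2% of control (log2 fold change -0.25, SE 0.065, limma adjusted p = 0.0245), a call lost without any 1 shControl library or the third shZDHHC20 library, with adjusted p of 0.0636 to 0.133. HEXA, the alpha subunit of the hexosaminidase that GM2A serves, had a log2 fold change of 0.087 (95% interval -0.076 to 0.25).

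PSAP, the precursor of the saposins, alone made up 35.2% of the summed normalized counts of the list in shControl cells. Its values were 31422, 30756 and 30821 in shControl and 29031, 30968 and 28929 in shZDHHC20. The second shZDHHC20 library lay inside the shControl range and the others below it, giving a log2 fold change of -0.065 (adjusted p = 0.376) with all libraries and an adjusted p of 0.00105 without that library. Under quantile normalization its sign turned, to 0.063. NPC2, which hands cholesterol to the lysosomal membrane, had non-overlapping groups of 669, 717 and 672 and 622, 589.8 and 569, with a log2 fold change of -0.21 that did not pass (adjusted p = 0.0822) but had an adjusted p of 0.0447 without the second shZDHHC20 library.

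The 4 remaining hydrolases act on diverse substrates. GGH, the gamma-glutamyl hydrolase that shortens folate polyglutamates (ENSG00000137563, chr8:63015079-63039171, minus strand), had 608, 648 and 689.8 in shControl and 516, 503 and 585 in shZDHHC20. Its mean was 82.5% of control (log2 fold change -0.28, SE 0.082, limma adjusted p = 0.0437), and the call was lost in 8 of the 17 alternative analyses, the most of the 10. Without any 1 shControl library, or without the first shZDHHC20 library, the adjusted p was 0.0767 to 0.204. AGA, the aspartylglucosaminidase, was higher in each shZDHHC20 library, with 83.9, 93.4 and 79.1 in shControl and 102, 116 and 113 in shZDHHC20, but did not pass (log2 fold change 0.36, adjusted p = 0.144). DNASE2, the acid DNase, and ACP2, an acid phosphatase, had log2 fold changes of -0.14 and 0.019, neither past the test.

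Each of the 10 called genes reached p = 0.1 in an exact two-sided permutation test of its 6 values, the smallest that 3 libraries against 3 allow. The calls therefore rest on the spread that limma shares across genes.

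To set levels of different genes side by side, normalized counts were divided by the length of the union of annotated exons in kilobases. In shControl cells PSAP ranked 1 with a level of 9571 normalized counts per kb, followed by CTSD with 2568, CTSZ with 1029, CTSB with 713 and DNASE2 with 599. None of these 5 passed the test. The called genes lay in the middle of the order, from CTSA with 465 at rank 8 to IDUA with 79.9 at rank 36, and NEU1 ranked 17 with 259 normalized counts per kb. The lowest levels belonged to CTSS (3.72), CTSK (19.2), CTSO (21.4), MANBA (30.6) and AGA (31.9) normalized counts per kb. With the longest coding transcript as the length, 4 of the 5 highest genes were shared, and CTSA took the place of DNASE2. Among the lowest 5, MANBA then stood at 108 per kb of coding transcript and CTSV, with 62.9, took its place.

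**Figure D3:**
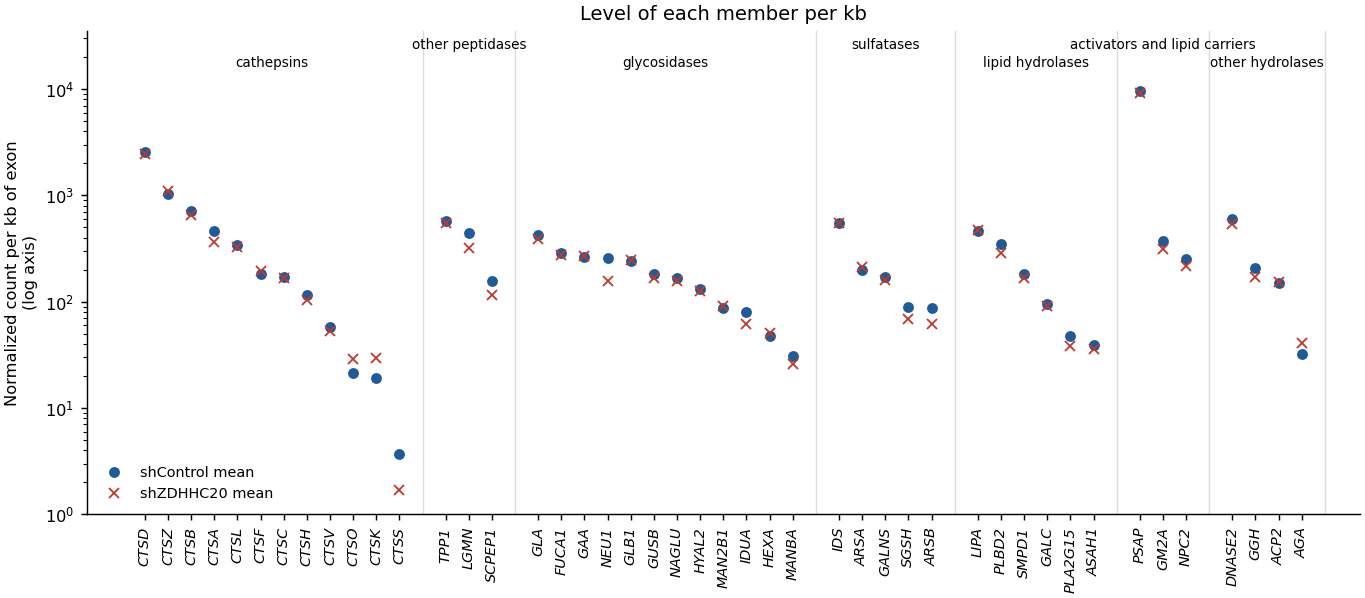
Level of each member in normalized counts per kb of annotated exon (log axis), as group means of 3 libraries each. PSAP and CTSD lead the order, CTSS is lowest at 3.72 in shControl, and the called members lie between these ends.

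Promoter sequence was not used in choosing the list, but CLEAR is already known as an element of genes of this group. The shares of matches below are therefore a description and no independent evidence about the list. RefSeq promoters, from 250 bases before to 50 after the gene start, were at hand for 32 of the 45 members. The CLEAR core TCACGTG, searched on both strands, was found in 8 of the 32 (25%) and in 3.82% of 27305 promoters of the same length. The longer GTCACGTG was in 6 of 32 (18.8%) against 2.53%, and the shorter CACGTG, which both contain, in 8 of 32 (25%) against 7.435%. Of the 7 called members with a promoter, 4 held TCACGTG, and of the 25 that were not called, 4 did. The motif thus stood in the promoters of NEU1, CTSA, PLBD2 and SCPEP1, which fell, and of CTSD, CTSF, GAA and GALNS, which did not pass. A match is a run of letters and not a measured binding site.

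The following windows are shown because they hold the shared element in all 8 genes. Each is 30 bases of GRCh38.p14 from RefSeq, 5′ to 3′ on the strand of the gene, with the letters of TCACGTG or its reverse complement in capitals. NEU1 and CTSA belong to the members with the smallest adjusted p, and the others were chosen after their values were seen.
NEU1 (chr6:31862931-31862960, minus strand): gatgctgcgtgaTCACGTGggaggagatga
CTSA (chr20:45891289-45891318, plus strand): ctgTCACGTGgcgccggagtTCACGTGAct
PLBD2 (chr12:113358551-113358580, plus strand): gcagagcgcagTCACGTGAcccgggctgcg
SCPEP1 (chr17:56978092-56978121, plus strand): gtccgcctccgTCACGTGAtggggcgccgg
CTSD (chr11:1763957-1763986, minus strand): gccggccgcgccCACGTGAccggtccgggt
CTSF (chr11:66568712-66568741, minus strand): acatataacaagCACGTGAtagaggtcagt
GAA (chr17:80101493-80101522, plus strand): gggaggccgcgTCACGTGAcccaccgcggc
GALNS (chr16:88857104-88857133, minus strand): caggcaccgcgTCACGTGAcccgccgctgg

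In PLBD2, SCPEP1, GAA and GALNS the capitals spell the full palindrome TCACGTGA, and CTSA holds that palindrome and a plain TCACGTG side by side. The first match began 127 bases before the annotated start in NEU1, 43 in CTSA, 25 in PLBD2, 28 in SCPEP1, 47 in CTSD, 123 in CTSF, 77 in GAA and 175 in GALNS. GAA and GALNS each had another match nearer the start, at 32 and 33 bases before it. The palindrome was thus found in called and in uncalled genes alike. The 250 bases before the start of NEU1, the member with the lowest adjusted p, show its single match in the context of the whole upstream stretch (GRCh38.p14, minus strand).
NEU1 upstream (chr6:31862822-31863071): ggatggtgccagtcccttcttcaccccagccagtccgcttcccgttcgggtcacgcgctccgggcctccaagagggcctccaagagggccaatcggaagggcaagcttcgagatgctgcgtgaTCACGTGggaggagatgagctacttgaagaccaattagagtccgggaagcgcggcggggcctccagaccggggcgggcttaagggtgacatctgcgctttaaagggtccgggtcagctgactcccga

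The transcription factors that bind this element had small fitted values. TFEB had normalized counts of 144, 144 and 106 in shControl and 113, 133 and 134 in shZDHHC20, with a log2 fold change of -0.041 and a wide 95% interval of -0.37 to 0.29. TFE3 and MITF had values of -0.14 (95% interval -0.29 to 0.0064) and 0.11 (95% interval -0.095 to 0.31), neither past the test. Over the 19 factors and regulators in this list 1 was lower and 1 was higher, with a median of 0.0061. These are 5.26% each, beside 6.84% and 4.61% of all genes tested, and 13.3% and 8.41% of genes averaging 100 or more. ZKSCAN3, a zinc finger protein described as a repressor of autophagy and lysosome genes, fell from 224 ± 18.7 to 157 ± 16.7 (limma adjusted p = 0.0141), with adjusted p of 0.115 without the mean-variance trend and of 0.0645 to 0.0904 when the first or the third shControl library or the first shZDHHC20 library was left out. FNIP2, a partner of folliculin in signalling from the lysosome surface, rose from 368 ± 19.4 to 445 ± 13.4 (limma adjusted p = 0.0441), a call lost in 7 of the 17 alternative analyses, with adjusted p of 0.0737 to 0.181 when any library but the second of shZDHHC20 was left out.

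The next list held 16 genes: those that tag and sort hydrolases and, beside them, SUMF1 and SUMF2. Of the 16, 3 were lower and 0 were higher by limma, and at an unadjusted p under 0.05, 4 were lower and 3 were higher. These are 18.8% called lower, and 25% and 18.8% at the unadjusted threshold, near the 13.3%, 22.1% and 16.9% of genes averaging 100 or more. M6PR, the small cation-dependent mannose 6-phosphate receptor, had 1574, 1413 and 1492 in shControl and 914, 1063 and 940.2 in shZDHHC20, and its mean fell to 65.1% of control (log2 fold change -0.62, SE 0.071, adjusted p = 9.81e-05). Its exons overlap those of PHC1 on the opposite strand, with a mean of 377. IGF2R, the large receptor for the same tag, had means of 8286 ± 140.0 and 8506 ± 306, a log2 fold change of 0.037 and a 95% interval of -0.058 to 0.13. GGA2, an adaptor that loads the receptors into carriers at the Golgi, fell from 2003 ± 87.7 to 1489 ± 31.3 (log2 fold change -0.43, adjusted p = 0.000276), and SUMF1 was the other gene called. Without the mean-variance trend M6PR and GGA2 had adjusted p of 0.0548 and 0.0568, and SUMF1 kept its call. GNPTAB, which makes the tag, had a log2 fold change of 0.18 that did not pass (adjusted p = 0.18). The median of the list was 0.055, on the other side of 0 from that of the hydrolases.

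Another 23 lysosomal hydrolases and related proteins outside the list gave 3 lower and 0 higher, with a median of -0.057, and at an unadjusted p under 0.05, 6 were lower and 2 were higher. The share called lower was 13%, and the unadjusted shares were 26.1% and 8.70%, near or under those of genes averaging 100 or more. Some of the 23 lay under that level, and all genes tested had 6.84%, 12.6% and 11.2%. RNASET2, the acid ribonuclease, fell to 62.1% of control (log2 fold change -0.70, adjusted p = 0.00706). The peptidases PRCP and DPP7 fell by less, with log2 fold changes of -0.22 and -0.30 (adjusted p = 0.0193 and 0.0494), and DPP7 lost its call in 10 of the 17 alternative analyses. Leaving out any 1 shControl library or the third shZDHHC20 library lost both calls (adjusted p of 0.052 to 0.104 for PRCP and 0.139 to 0.18 for DPP7), as leaving out the first shZDHHC20 library did for DPP7 (0.171), and without the third shControl library RNASET2 had 0.0512. Exons of PRCP overlap those of DDIAS on the opposite strand, which had a mean of 449. None of the 3 kept its call without the mean-variance trend (adjusted p of 0.125 to 0.323).

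Of 14 listed peptidase inhibitors, cystatins and serpins among them, 7 were measured, and 2 of these were lower and 0 higher. The share called lower was 28.6% of only 7 genes, beside 6.84% of all genes tested and 13.3% of genes averaging 100 or more. CST3, the secreted inhibitor cystatin C, had 2142, 2084 and 2046 in shControl and 1293, 1218 and 1331 in shZDHHC20, and fell to 61.3% of control (log2 fold change -0.71, SE 0.057, adjusted p = 7.81e-06). CSTB, its cytosolic relative, fell from 2017 ± 67.3 to 1590.3 ± 88.4 (log2 fold change -0.34, adjusted p = 0.00194). CST1, CST7 and CSTA had means under 10 normalized counts, too few reads for their fitted values to be read. SERPINB1 and SERPINB6, intracellular serpins, had log2 fold changes of 0.093 and 0.12, neither past the test, and in SERPINB6 every shZDHHC20 library was above every shControl library. CSTB lost its call without the mean-variance trend (adjusted p = 0.0984), and CST3 kept it.

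**Figure D4:**
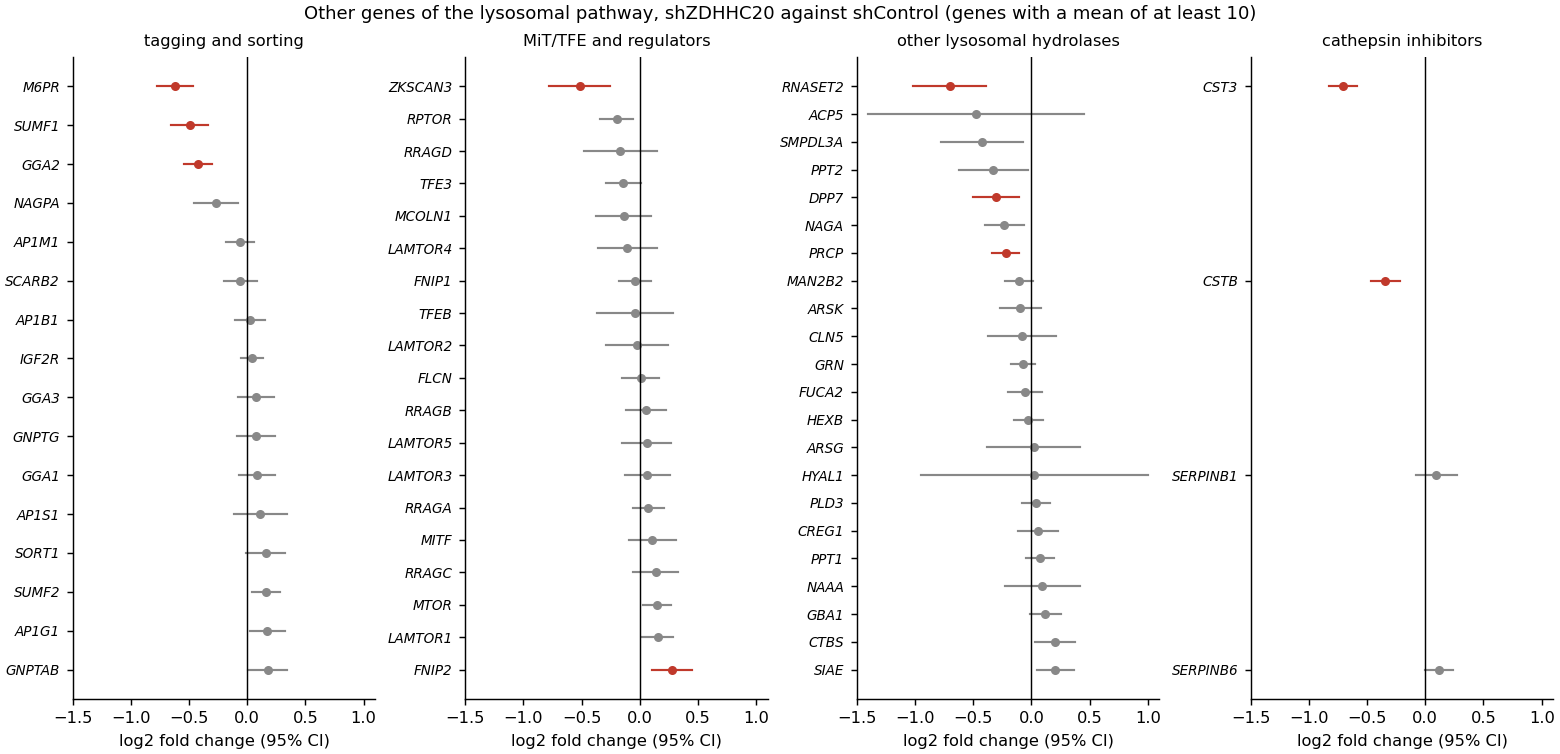
Fitted log2 fold changes (shZDHHC20 over shControl) in 4 related lists, for genes with a mean of at least 10 normalized counts; 1 further hydrolase and 3 inhibitors lie under that level and are not drawn. The called genes lie below 0 (CST3, RNASET2, M6PR, ZKSCAN3, SUMF1, GGA2, CSTB, DPP7 and PRCP) except FNIP2, and TFEB, TFE3 and MITF, at -0.041, -0.14 and 0.11, did not pass.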

How the data were processed

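RNA-seq was performed on 3 shControl and 3 shZDHHC20 libraries of PANC-1 cells, prepared from total RNA with a directional kit. The deposited table gives, per Ensembl gene, a signal value that the authors normalized. It is named as FPKM, but its values are multiples of a step close to 1 in each library (within 0.1 of a whole number) and sum to 17083277 to 18007664, so each was read as a count divided by a library size factor (normalized count). The submitters' processing notes name hg19, and the aligner, counter and strand setting are not given in the sources used here. Columns named siZDHHC20 and NC were matched to shZDHHC20 and shControl by group and replicate number.

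The values were transformed as log2(value + 0.1), so that fitted changes of genes near 0 depend on the added 0.1 and can differ from the ratio of the means, and genes averaging at least 1 (22189) were fitted with limma 3.58.1 in R 4.3.3 (group as the only term, mean-variance trend). P-values are two-sided and adjusted by Benjamini-Hochberg over all genes tested, with a threshold of 0.05. The design had been written for FPKM, and limma was kept. The script was tested on simulated data with known changes. Gene positions and exon lengths are from GENCODE 29 (GRCh38), which the table was matched to by gene ID only, and promoters are from RefSeq (GRCh38.p14). Figures were drawn with matplotlib 3.10.9 in Python 3.11.15.

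The members, gene lists and tests were chosen with earlier results of these data known. Genes were named by a rule: each called member, the member with the largest mean and the uncalled member with the largest absolute log2 fold change in each class, and up to 4 called genes of each related list. CTSB, CTSK, CTSL, CTSV, GLB1, HEXA, ARSA, ASAH1, SMPD1, GALC, ACP2, TFEB, TFE3, MITF, IGF2R and GNPTAB were named outside that rule, for their role or after their values were seen. The same holds for CST1, CST7, CSTA, SERPINB1 and SERPINB6. A gene of the related hydrolases and an epithelial marker are not reported here and were left out of their lists' counts. Alternatives changed the pseudocount, filter, scaling, variance moderation, replicate block, length and motif, and left out each library in turn.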

Additional observations from a re-analysis of the deposited data

How the results depend on the processing

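No member was called higher under any of the 17 alternative analyses, and the direction of no called member turned. The 10 members called lower became 2 without the mean-variance trend and 5 to 16 when each library was left out in turn, 16 being without the second shZDHHC20 library. The calls over all genes, 2541, became 351 without the trend and 1233 to 4454 with a library left out. NEU1 and LGMN were past the threshold in all 17, and 6 of the 35 uncalled members passed in at least 1 alternative. The median log2 fold change of all members, -0.097, was -0.077 under quantile normalization, -0.11 among genes with a mean of at least 100 (an alternative chosen after seeing the data) and -0.11 to -0.092 with a library left out. With a library left out the class medians ran from -0.097 to -0.043 for cathepsins, -0.47 to -0.35 for the other peptidases, -0.11 to -0.062 for glycosidases, -0.19 to -0.11 for lipid hydrolases, -0.10 to -0.084 for sulfatases and -0.24 to -0.18 for activators. Glycosidases had -0.051 under quantile normalization. The other hydrolases, -0.062, had -0.14 with a mean of at least 100 and -0.14 when AGA was moved to the glycosidases, which leaves fewer genes. The causes of the remaining shifts were not tested.

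Replicate numbers did not pair the libraries: deviations of same-numbered libraries from their group means correlated at -0.095, -0.16 and -0.077 over 10908 genes. With the replicate block 1942 genes and 9 members were called, GGH being lost (adjusted p = 0.0519), and of the related genes PRCP and FNIP2 were lost (0.0515 and 0.0884). The count tests planned on whole reads were not run, since whole reads could not be accepted for the shControl columns, and protein features were not run because no protein sequences were used here. With 3 libraries a group and members such as CTSS under 20 normalized counts, changes of low genes were not detectable below the intervals given.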
